A study of Mus musculus with 10 samples.

Results

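The 33 genes described here move calcium in the muscle fiber or couple its electrical excitation to contraction. They were chosen by name, as components of the triad, the calcium store and the excitable membrane, and all 33 were found by Ensembl identifier among 25700 genes counted. In regenerating tibialis anterior (TA) muscle, all 33 had 10 or more counts in all 10 mice, beside 14474 of the 25700 genes with 10 or more counts in at least 5 mice. The muscles came from 5 Pax7Cre and 5 miR-501KO mice, all C57BL/6 males aged 12 weeks, 6 days after an injection of cardiotoxin (CTX), a snake toxin that destroys fibers and starts their regeneration, into the TA. The miR-501KO mice carried Pax7Cre together with the X-linked floxed allele miR-501fl/Y, and the controls carried Pax7Cre alone, so both genotypes expressed the recombinase, although the labels list the genotypes as wild type and miR-501 −/−. Cre under the Pax7 promoter deletes the miRNA in muscle stem cells and the fibers they form, and the other cells of the muscle keep it. The comparison asks which transcripts differ in a regenerating muscle when its myogenic cells lack miR-501.

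In a resting fiber calcium is held in the sarcoplasmic reticulum, bound to calsequestrin. An action potential spreads along the T-tubules to the triads, where the voltage sensor, an L-type calcium channel, touches and opens the ryanodine receptor of the reticulum, and the calcium released lets actin and myosin interact. The pump SERCA returns the calcium, soluble buffers such as parvalbumin speed relaxation in fast fibers, and newly formed fibers build this machinery while their T-tubules and reticulum take shape.

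Totals lay between 18609222 and 22064583 counts per Pax7Cre mouse and between 20046670 and 24753258 per miR-501KO mouse. The 33 genes together took between 1.41% and 2.43% of all counts of a mouse, and both of these ends were Pax7Cre mice, mouse 4 and mouse 2. *Mir501* itself was not analysed here, so the deletion was not checked in these counts. Its host gene *Clcn5* had 62.1 ± 8.59 CPM in Pax7Cre and 64.9 ± 1.55 CPM in miR-501KO mice (SD, n = 5 each). Levels are given in CPM, counts scaled to library totals corrected with edgeR's TMM factors, which compare a gene between mice, and in TPM, counts per exon length scaled to an equal sum in each mouse, which compare genes.

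Markers of fast and of regenerating fibers were present. All 21 mature fiber genes were measured, most abundantly *Mylpf*, the fast regulatory myosin light chain, with 14456 ± 4961 CPM in Pax7Cre and 14839 ± 1354 CPM in miR-501KO mice (SD, n = 5 each). The 12 genes of regenerating fibers were led by *Actc1*, cardiac actin that new fibers express, with 2965 ± 593 CPM in Pax7Cre and 3368 ± 635 CPM in miR-501KO mice (SD, n = 5 each), and the 6 slow fiber genes by *Tnni1*, slow troponin I, with 678 ± 89.2 CPM in Pax7Cre and 689 ± 91.8 CPM in miR-501KO mice (SD, n = 5 each). Other cells were present, as the summed CPM of their markers shows, with 5790.4 ± 806 and 5731 ± 438 (SD, n = 5 each) for macrophage genes, led by *Lyz2*, and 16527 ± 2454 and 16335 ± 1304 for fibroblast genes, led by *Col3a1*, in Pax7Cre and miR-501KO mice in turn. The corresponding sums were 699 ± 62.3 and 680.2 ± 62.7 for endothelial genes, led by *Cdh5*, 911 ± 188 and 1019 ± 95.1 for smooth muscle genes, led by *Acta2*, 39.3 ± 9.77 and 38.9 ± 7.17 for nerve and Schwann cell genes, led by *Mbp*, and 27.5 ± 12.8 and 22.8 ± 13.3 for adipocyte genes, led by *Adipoq*. Of the 5 cardiac genes, 1 passed the filter on low counts, *Tnni3* with 2.08 ± 0.348 CPM in Pax7Cre and 2.43 ± 0.869 CPM in miR-501KO mice (SD, n = 5 each), and *Myl7*, an atrial myosin light chain, had at most 1 count in a mouse. No gene of these lists was at 0 in every mouse. None of these markers had an unadjusted p under 0.05 between genotypes in edgeR.

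Per length, the transcripts of the calcium buffer, the pump and the store protein stood far above the channels. *Pvalb*, parvalbumin, was the most abundant with 8418 ± 3092 TPM in Pax7Cre and 9093 ± 703 TPM in miR-501KO mice (SD, n = 5 each) and made up 41.5% of the summed mean TPM of the 33. *Atp2a1*, the fast-fiber pump SERCA1, had 3483 ± 1058 TPM in Pax7Cre and 3515 ± 849 TPM in miR-501KO mice, and *Casq1*, the skeletal calsequestrin, 3137 ± 477 TPM in Pax7Cre and 3394 ± 275 TPM in miR-501KO mice. These last levels lie within each other's spread between mice. Next came *Tmem38a*, *Cacng1*, *Casq2*, *Hrc* and *Srl*, with means over the 10 mice between 566 and 649 TPM, which also lie within their spread. *Ryr1*, the release channel, was at 70.7 TPM and *Cacna1s*, the pore of the voltage sensor, at 79.4 TPM, again within their spread. At the low end were *Scn4a* at 24.3 TPM, *Pln* at 1.66 TPM and *Ryr3* at 0.925 TPM.

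**Figure D1:**
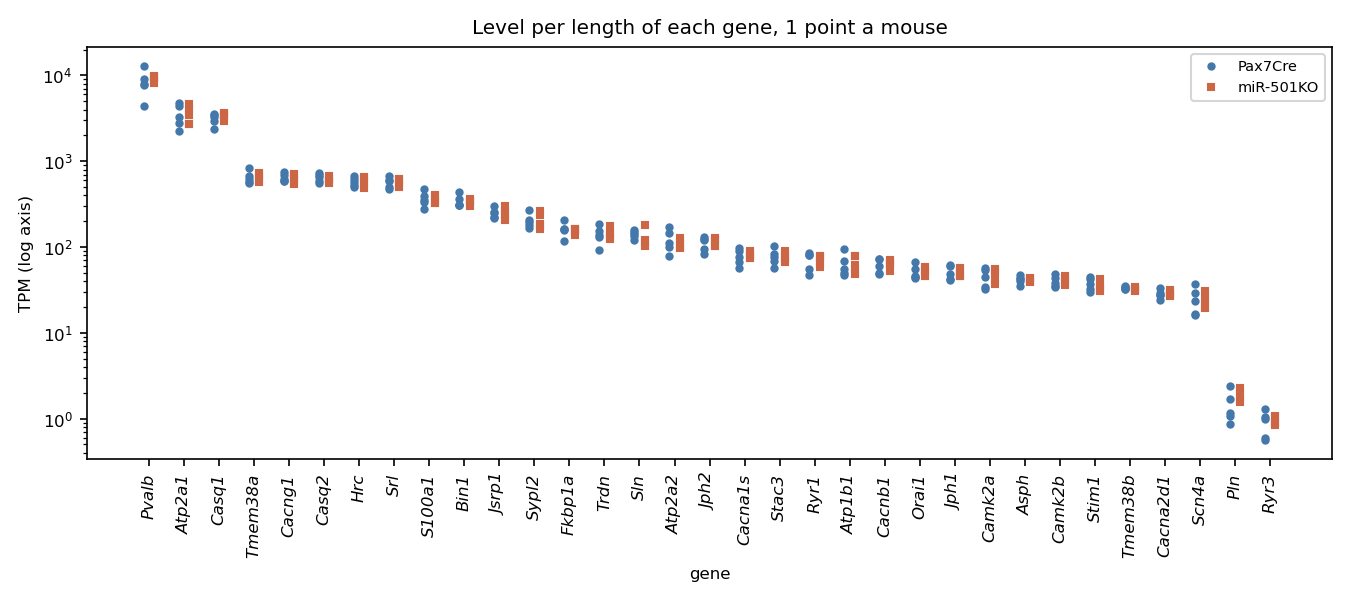
TPM of each of the 33 genes in each mouse on a log axis, genes ordered by their mean over 10 mice, with Pax7Cre mice as circles and miR-501KO mice as squares (n = 5 each). *Pvalb*, *Atp2a1* and *Casq1* lie highest, *Pln* and *Ryr3* lowest, and the genotypes overlap in each gene.

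Between genotypes none of the 33 genes was called. Of 14410 genes tested with edgeR's quasi-likelihood test, 0 (0.00%) had a Benjamini-Hochberg adjusted p under 0.05, and DESeq2's Wald test and edgeR's likelihood ratio test also called 0. Unadjusted, edgeR gave p under 0.05 for 55 genes (0.382%) with higher and 96 (0.666%) with lower levels in miR-501KO mice, and DESeq2 for 52 and 98. Among the 33, 0 were higher and 0 lower at that level in edgeR, as in DESeq2, and the smallest p was 0.286, for *Pln*. The median log2 fold change of the 33 was 0.016, with 21 above 0 and 12 below, beside a median of −0.0042 over all genes tested. Each of the 33 overlapped between genotypes, as did all but 20 of the 14410 genes tested. The 95% interval of the fold change lay within 1.5-fold in either direction for 29 genes and within 2-fold for 32, the exception being *Pln*. In bulk muscle, fewer fibers and less RNA per fiber cannot be told apart.

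Single mice moved these counts. Without Pax7Cre mouse 2, *Pln*, *Cacna1s* and *Camk2a*, 3 of the 33 genes, had higher levels with an unadjusted p under 0.05 in edgeR, beside 267 higher and 186 lower among all genes, and the median of the 33 was 0.18. Without Pax7Cre mouse 4 the median was −0.046, and 228 and 242 of all genes were higher and lower. Without miR-501KO mouse 2, *Sln* was lower at that level, beside 49 higher and 102 lower among all genes. Without miR-501KO mouse 1 none of the 33 was, and 59 of all genes were lower. With Pax7Cre mice 2 and 4 both left out, a setting chosen after seeing the data, 1 of the 33 was higher (*Pln*), beside 279 higher and 252 lower among all genes. No gene had an adjusted p under 0.05 in any of these fits in edgeR.

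**Figure D2:**
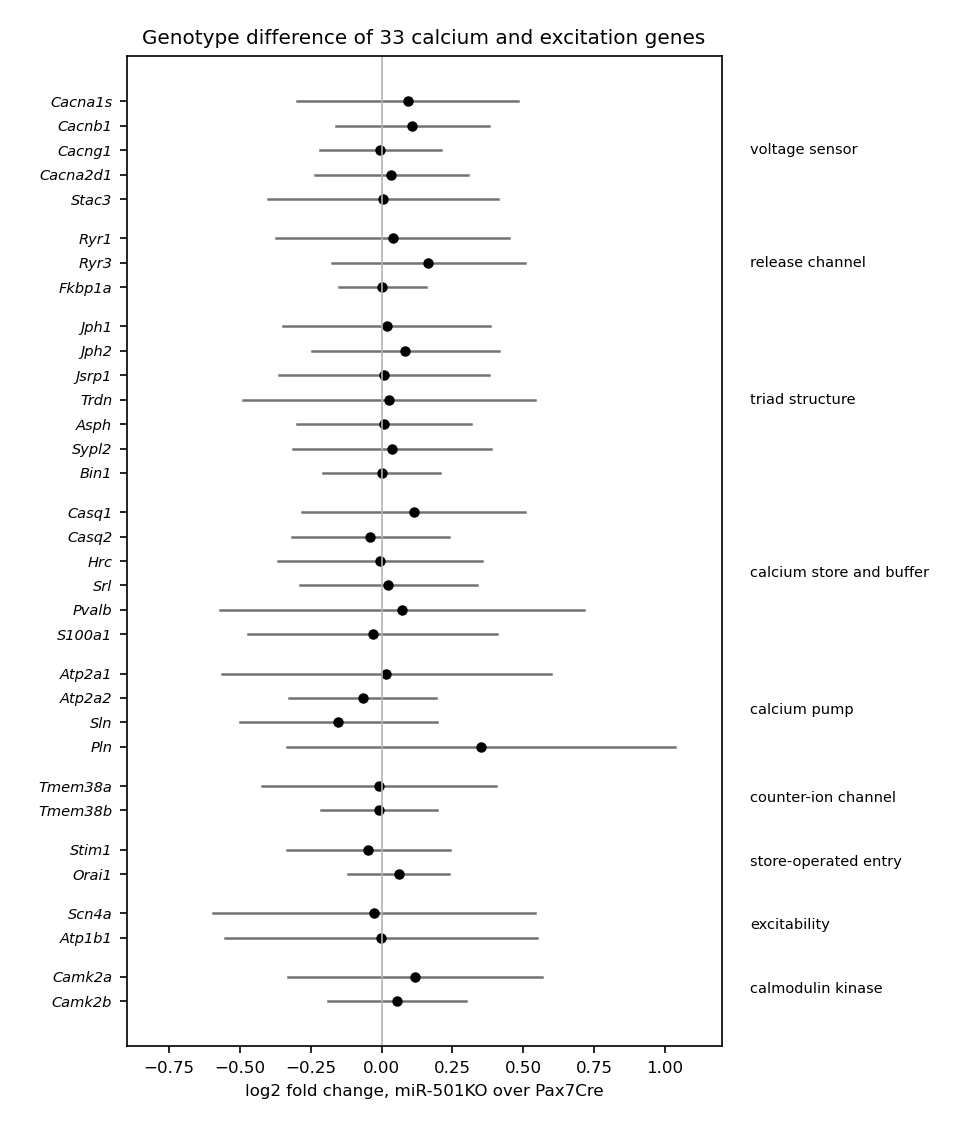
Log2 fold change of each of the 33 genes in miR-501KO over Pax7Cre mice (5 mice each) from edgeR, grouped by role, with bars for the 95% interval and a line at 0. Each interval spans 0, and that of *Pln* is the widest.

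The voltage sensor is built of the pore subunit *Cacna1s*, the cytoplasmic *Cacnb1* that brings it to the membrane, *Cacna2d1*, *Cacng1* and the adaptor *Stac3*. *Cacna1s* had 147, 296, 164, 150.1 and 218 CPM in Pax7Cre mice 1 to 5 and 187, 205, 183, 249 and 214 CPM in miR-501KO mice 1 to 5. Pax7Cre mouse 2 was the highest of all mice and Pax7Cre mouse 1 the lowest, with every miR-501KO mouse between them (log2 fold change 0.091, standard error 0.181, unadjusted p = 0.621 from edgeR). *Cacnb1* had 87.5, 127, 81.7, 99.8 and 119 CPM in Pax7Cre mice 1 to 5 and 92.4, 113, 111, 121 and 118 CPM in miR-501KO mice 1 to 5. Here too the Pax7Cre mice enclosed the miR-501KO mice (log2 fold change 0.11, standard error 0.125, unadjusted p = 0.403 from edgeR). Log2 fold changes of the other 3 subunits lay between −0.0043 for *Cacng1* and 0.033 for *Cacna2d1*, and 4 of the 5 genes were above 0.

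The release channel of adult fibers is *Ryr1*, while *Ryr3* is a paralog that muscle expresses mainly around birth, and *Fkbp1a* encodes the small protein FKBP12 that binds and steadies them. *Ryr1* (ENSMUSG00000030592), on chr7:29003344-29125179 of GRCm38, had 404, 878, 461, 532 and 655 CPM in Pax7Cre mice 1 to 5 and 496, 548, 609, 723 and 637 CPM in miR-501KO mice 1 to 5. Pax7Cre mice held both the lowest and the highest value (log2 fold change 0.039, standard error 0.190, unadjusted p = 0.840 from edgeR). *Ryr3* had 4.34, 4.96, 7.45, 7.42 and 7.003 CPM in Pax7Cre mice 1 to 5 and 6.60, 7.74, 6.37, 6.68 and 7.59 CPM in miR-501KO mice 1 to 5, from 94 to 185 counts a mouse. Pax7Cre mice 1 and 2 lay below every other mouse, and the other 3 among the miR-501KO mice (log2 fold change 0.16, standard error 0.157, unadjusted p = 0.314 from edgeR). Reads on *Ryr3* may be shared with *Aven*, which overlaps its exons on the opposite strand. The ratio of *Ryr1* to *Ryr3* in CPM was 99.5 ± 45.5 in Pax7Cre and 86.7 ± 15.3 in miR-501KO mice (SD, n = 5 each), and the genotypes overlapped. In CPM *Fkbp1a* was the steadiest of the 33, with 231 ± 11.9 CPM in Pax7Cre and 232 ± 6.55 CPM in miR-501KO mice (SD, n = 5 each) and a highest mouse 1.14 times the lowest. This ranking did not hold in TPM, where *Fkbp1a* ran from 118 in Pax7Cre mouse 2 to 207 in Pax7Cre mouse 4. *Tmem38b* ran only from 31.1 TPM in miR-501KO mouse 5 to 34.7 TPM in Pax7Cre mouse 5.

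Junctophilins tie the T-tubule to the reticulum. *Jph1*, the form typical of skeletal muscle, had 80.5, 139.9, 80.2, 73.2 and 115 CPM in Pax7Cre mice 1 to 5 and 88.2, 88.3, 93.9, 118 and 106 CPM in miR-501KO mice 1 to 5. *Jph2*, which heart and skeletal muscle share, had 157, 245, 133, 156 and 206 CPM in Pax7Cre mice 1 to 5 and 168, 167, 206, 215 and 194 CPM in miR-501KO mice 1 to 5. In both, Pax7Cre mouse 2 was the highest and the miR-501KO mice fell within the range of the Pax7Cre mice, with log2 fold changes of 0.018 (standard error 0.169) and 0.083 (standard error 0.153). Their ratio was 0.543 ± 0.0532 in Pax7Cre and 0.522 ± 0.0386 in miR-501KO mice (SD, n = 5 each), with less spread relative to its mean than either gene. The other 5 genes of the triad are *Trdn*, triadin, and *Asph*, which includes junctin, both anchors of calsequestrin, *Jsrp1*, *Sypl2*, mitsugumin 29, and *Bin1*, which shapes T-tubules. Their log2 fold changes lay between −0.00042 and 0.037. *Trdn* varied most among them, from 258 CPM in Pax7Cre mouse 4 to 815 CPM in Pax7Cre mouse 2. Reads on *Asph* may be shared with *Clvs1* on the opposite strand.

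Of the calcium-binding genes, calsequestrins store calcium inside the reticulum and parvalbumin buffers it in the cytosol. *Casq1* had 2250.1, 3265, 2436, 1404 and 2488 CPM in Pax7Cre mice 1 to 5 and 2582, 2619.7, 2661, 2399 and 2547 CPM in miR-501KO mice 1 to 5. All 5 miR-501KO mice lay close together, between Pax7Cre mouse 4 far below and Pax7Cre mouse 2 above (log2 fold change 0.11, standard error 0.182, unadjusted p = 0.546 from edgeR). *Casq2*, the calsequestrin of heart, slow and immature fibers, had 786, 716, 671, 482 and 688 CPM in Pax7Cre mice 1 to 5 and 701, 653, 649, 685 and 564 CPM in miR-501KO mice 1 to 5. The genotypes overlapped, with Pax7Cre mouse 4 the lowest (log2 fold change −0.039, standard error 0.127, unadjusted p = 0.762 from edgeR), and the *Casq1* to *Casq2* ratio was 3.52 ± 0.690 in Pax7Cre and 3.96 ± 0.392 in miR-501KO mice (SD, n = 5 each).

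*Pvalb*, on chr15:78191114-78206400, had 3643, 6345, 3118, 1365 and 3006 CPM in Pax7Cre mice 1 to 5 and 3238, 3721, 3871, 4166 and 3383 CPM in miR-501KO mice 1 to 5. Pax7Cre mouse 2 had 4.65 times the level of Pax7Cre mouse 4, the widest range of the 33, while the miR-501KO mice stayed within a narrow band inside it (log2 fold change 0.073, standard error 0.297, unadjusted p = 0.810 from edgeR). *Hrc*, a histidine-rich calcium binder of the reticulum, *Srl*, sarcalumenin, and *S100a1*, a calcium sensor that acts on the release channel and the pump, had log2 fold changes between −0.031 and 0.023.

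Calcium returns to the store through *Atp2a1*, SERCA1 of fast fibers, and *Atp2a2*, SERCA2 of slow, heart and immature fibers, which the small membrane proteins sarcolipin (*Sln*) and phospholamban (*Pln*) restrain. *Atp2a1*, on chr7:126445858-126463108, had 3749, 7763, 2918, 3482 and 5569 CPM in Pax7Cre mice 1 to 5 and 3629, 3596, 4538, 6003 and 5978 CPM in miR-501KO mice 1 to 5. Mice of both genotypes were spread from low to high (log2 fold change 0.016, standard error 0.268, unadjusted p = 0.953 from edgeR). Reads on *Atp2a1* may be shared with *Rabep2*, whose exons overlap it on the opposite strand. *Atp2a2* had 236, 226, 257, 314 and 325 CPM in Pax7Cre mice 1 to 5 and 238, 229.9, 279, 256 and 292 CPM in miR-501KO mice 1 to 5. Pax7Cre mouse 2, the highest in *Atp2a1*, was the lowest here (log2 fold change −0.067, standard error 0.120, unadjusted p = 0.582 from edgeR). The ratio of *Atp2a1* to *Atp2a2* was 17.97 ± 9.56 in Pax7Cre and 18.2 ± 3.60 in miR-501KO mice (SD, n = 5 each), with values between 11.1 and 34.4 in Pax7Cre and between 15.2 and 23.5 in miR-501KO mice.

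*Sln* had 77.7, 83.8, 78.8, 55.7 and 59.2 CPM in Pax7Cre mice 1 to 5 and 59.7, 91.5, 59.9, 57.9 and 50.5 CPM in miR-501KO mice 1 to 5. Of the miR-501KO mice, mouse 2 lay above every Pax7Cre mouse and mouse 5 below every one (log2 fold change −0.15, standard error 0.160, unadjusted p = 0.358 from edgeR), and without mouse 2 the log2 fold change was −0.32. *Pln* had 1.84, 3.11, 0.898, 0.883 and 1.18 CPM in Pax7Cre mice 1 to 5 and 2.40, 1.75, 1.87, 1.80 and 2.16 CPM in miR-501KO mice 1 to 5, from 17 to 60 counts a mouse. Pax7Cre mice 3, 4 and 5 lay below every miR-501KO mouse and Pax7Cre mouse 2 above every one (log2 fold change 0.35, standard error 0.316, unadjusted p = 0.286 from edgeR). Its log2 fold change was the largest of the 33, and without Pax7Cre mouse 2 it was 0.73. At these low counts, counting error adds to the spread of *Pln* between mice, and *Cep85l* overlaps it on the opposite strand. The ratio of *Sln* to *Pln* was 54.1 ± 22.9 in Pax7Cre and 32.9 ± 11.6 in miR-501KO mice (SD, n = 5 each), with values between 26.9 and 87.8 in Pax7Cre and between 23.4 and 52.4 in miR-501KO mice that overlap.

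Potassium moving through the channels TRIC-A (*Tmem38a*) and TRIC-B (*Tmem38b*) of the reticulum balances the charge of calcium release. *Tmem38a* had 514, 846, 445, 367 and 538 CPM in Pax7Cre mice 1 to 5 and 465, 482, 534, 649 and 562 CPM in miR-501KO mice 1 to 5. *Tmem38b*, the form found in most tissues, had 47.7, 57.4, 48.0, 38.9 and 48.6 CPM in Pax7Cre mice 1 to 5 and 45.6, 48.3, 48.8, 52.4 and 44.1 CPM in miR-501KO mice 1 to 5. Both were highest in Pax7Cre mouse 2 and lowest in Pax7Cre mouse 4, with log2 fold changes of −0.0091 (standard error 0.191) and −0.0078 (standard error 0.0946), and their ratio was 11.1 ± 2.21 in Pax7Cre and 11.3 ± 1.25 in miR-501KO mice (SD, n = 5 each).

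An emptied store is refilled from outside the fiber, with *Stim1* sensing calcium in the reticulum and *Orai1* forming the pore in the surface membrane. *Orai1* had 40.3, 47.0, 40.0, 45.9 and 47.2 CPM in Pax7Cre mice 1 to 5 and 40.4, 48.8, 46.1, 43.9 and 50.6 CPM in miR-501KO mice 1 to 5. miR-501KO mice 2 and 5 lay above every Pax7Cre mouse, and the others among them (log2 fold change 0.060, standard error 0.0820, unadjusted p = 0.479 from edgeR). *Stim1* had 119.5, 183, 125, 132 and 172 CPM in Pax7Cre mice 1 to 5 and 123, 125, 144, 151 and 165 CPM in miR-501KO mice 1 to 5. The genotypes overlapped, with Pax7Cre mouse 2 the highest (log2 fold change −0.047, standard error 0.133, unadjusted p = 0.728 from edgeR).

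The action potential depends on *Scn4a*, the sodium channel of skeletal muscle, and on the sodium pump subunit *Atp1b1*. *Scn4a* had 67.3 ± 32.8 CPM in Pax7Cre and 66.1 ± 15.3 CPM in miR-501KO mice (SD, n = 5 each) and *Atp1b1* 76.0 ± 35.0 CPM in Pax7Cre and 75.9 ± 19.0 CPM in miR-501KO mice (SD, n = 5 each), with log2 fold changes of −0.026 and −0.0025 that are small beside standard errors of 0.262 and 0.255. *Nme7* overlaps *Atp1b1* on the opposite strand. Calcium bound to calmodulin activates the kinase subunits *Camk2a* and *Camk2b*. *Camk2a* had 94.5, 201, 96.5, 101 and 147 CPM in Pax7Cre mice 1 to 5 and 107, 121, 142, 169 and 154 CPM in miR-501KO mice 1 to 5. *Camk2b* had 125, 163, 118, 121 and 164 CPM in Pax7Cre mice 1 to 5 and 132, 129, 148, 149 and 158 CPM in miR-501KO mice 1 to 5. Pax7Cre mice enclosed the miR-501KO mice in both, with log2 fold changes of 0.12 (standard error 0.207) and 0.054 (standard error 0.112), and the ratio of *Camk2a* to *Camk2b* was 0.908 ± 0.189 in Pax7Cre and 0.964 ± 0.116 in miR-501KO mice (SD, n = 5 each).

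A further 63 calcium and excitation genes, among them calmodulins, calcineurin, the mitochondrial uniporter, plasma membrane pumps and inositol trisphosphate receptors, were examined alongside. Of these, 62 were found and 60 tested in edgeR, with 0 higher and 0 lower at an unadjusted p under 0.05 in edgeR and 0 higher and 0 lower in DESeq2, and a median log2 fold change of 0.0033. The smallest p among the higher ones belonged to *Atp2b4*, a plasma membrane calcium pump, with 77.4 ± 10.98 CPM in Pax7Cre and 88.8 ± 7.15 CPM in miR-501KO mice (SD, n = 5 each). Its statistics were log2 fold change 0.20, standard error 0.0995 and unadjusted p = 0.0695 from edgeR. It was followed by *Atp2b2*, a pump of the same family with 6 to 17 counts a mouse, at 0.45 (standard error 0.275), and *Mcub*, which restrains the uniporter, at 0.16 (standard error 0.118). Among the lower ones these were *Cacnb2* at −0.30 (standard error 0.338), *Dnm2* at −0.064 (standard error 0.0760) and *Cacna2d2* at −0.18 (standard error 0.225). *Atp2b4* had an unadjusted p under 0.05 without Pax7Cre mouse 4, Pax7Cre mouse 5 or miR-501KO mouse 2, as did *Cacng6* and *Scn4b* without Pax7Cre mouse 2, each of them higher in miR-501KO mice. Without Pax7Cre mice 2 and 4 together, chosen after seeing the data, this held for *Atp2b4* and *Scn4b*. *Ryr2*, the release channel of the heart, had 1 to 9 counts a mouse and *Jph3*, a junctophilin of the brain, 0 or 1, and neither was tested.

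Levels varied widely between mice of the same genotype. In CPM the highest mouse had a median of 1.89 times the level of the lowest over the 33 genes, from 1.14 for *Fkbp1a* to 4.65 for *Pvalb*. Pax7Cre mouse 2 was the highest of the 10 mice in 25 genes and Pax7Cre mouse 4 the lowest in 16, and in 14 genes they held both ends. In 31 of the 33 genes (93.9%) the SD of the CPM was larger in Pax7Cre than in miR-501KO mice, beside 79.5% of all genes tested. The exceptions were *Sln* and *Orai1*. These counts depend on the scale. In TPM, Pax7Cre mouse 2 was the highest in 14 and Pax7Cre mouse 4 the lowest in 5 of the 33 genes, while Pax7Cre mouse 4 was the highest in 7, among them *Bin1* and *Cacng1*. The SD of the TPM was larger in Pax7Cre mice in 28 genes, and the highest mouse had a median of 1.59 times the lowest. For the mice at the ends, and for the SD in TPM, shares over all genes are not given.

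**Figure D3:**
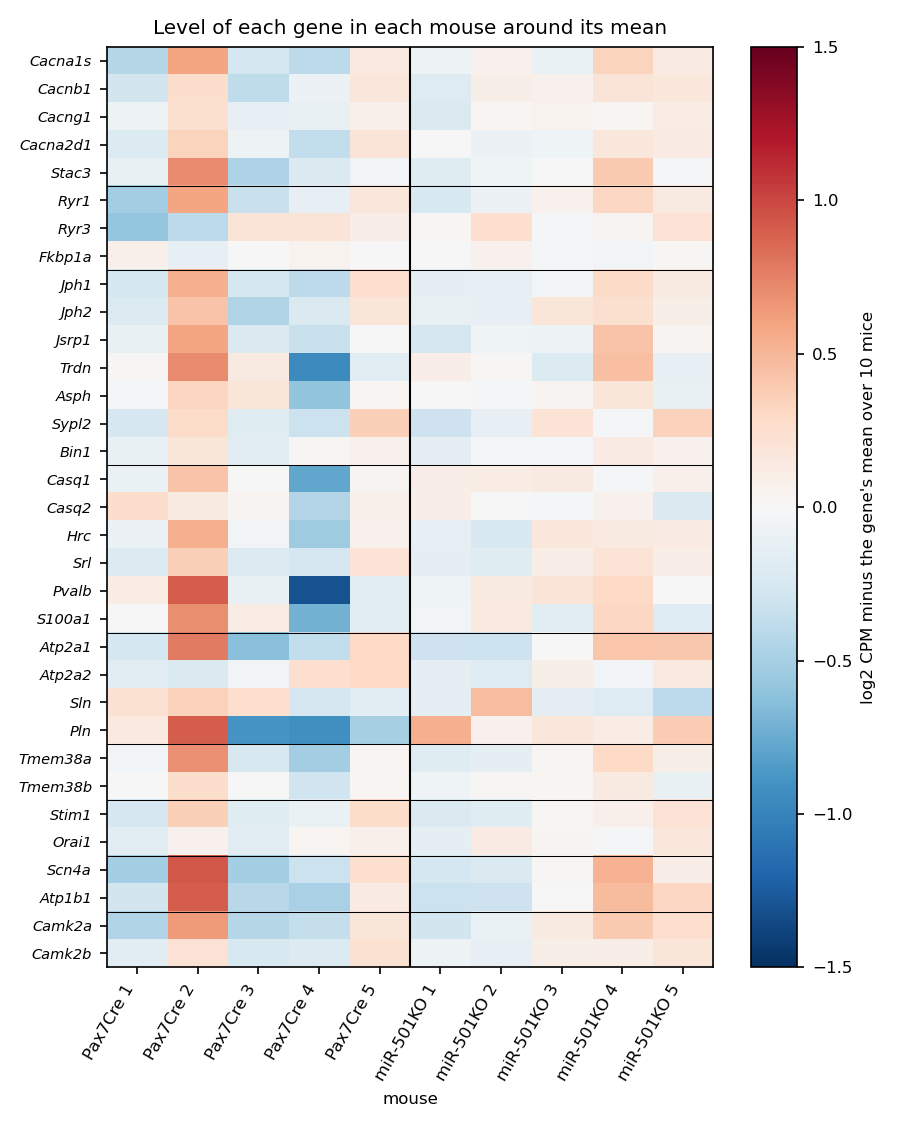
Log2 CPM of each of the 33 genes in each of the 10 mice, minus the mean of the gene over the mice, in the order of the roles. Pax7Cre mouse 2 is above the mean in most genes and Pax7Cre mouse 4 below it, and the Pax7Cre mice are more widely spread than the miR-501KO mice.

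To describe this variation, a mature fiber score was formed for each mouse, the mean log2 CPM of 21 contractile and metabolic genes of mature fast fibers, none of them among the 33, around its mean over the mice. It was −0.15, 0.79, −0.26, −0.73 and −0.0036 in Pax7Cre mice 1 to 5 and −0.080, −0.081, 0.024, 0.41 and 0.077 in miR-501KO mice 1 to 5. Pax7Cre mice 2 and 4 lay at the ends, and the genotypes overlapped. The TMM factors, by which library totals are multiplied for CPM, ran against the score at its ends. They were 0.884 in Pax7Cre mouse 2, 0.942 in miR-501KO mouse 4 and 1.13 in Pax7Cre mouse 4. The score and the CPM of each gene share these factors, and their part in the relation to the score was not tested. The 21 genes summed to 56925, 95667, 58654, 34923 and 60542 CPM in Pax7Cre mice 1 to 5 and 61143, 61954, 63466, 74521 and 61773 CPM in miR-501KO mice 1 to 5. The 12 genes of regenerating fibers summed to 7899, 6754, 8415, 8028 and 9372 CPM in Pax7Cre mice 1 to 5 and 8697, 8597, 9325, 6924 and 8804 CPM in miR-501KO mice 1 to 5. Pax7Cre mouse 2 and miR-501KO mouse 4, the highest in score, were the lowest in this sum, and 9 of the 12 genes fell with the score in edgeR. The 9 macrophage genes summed to 7071, 4990.2, 5475, 6026 and 5389.8 CPM in Pax7Cre mice 1 to 5 and 6219.9, 6169.9, 5426, 5264 and 5577 CPM in miR-501KO mice 1 to 5, and 3 of them fell with the score. The 6 fibroblast genes summed to 14038, 13666, 18076, 18228 and 18626 CPM in Pax7Cre mice 1 to 5 and 14585, 16868, 17685, 15367 and 17168 CPM in miR-501KO mice 1 to 5, and 2 of them rose and 1 fell. Of the other lists, 2 of 5 smooth muscle genes fell and 1 rose with the score, 2 of 6 slow fiber genes fell and 1 rose, 2 of 6 endothelial genes rose and 1 of 5 nerve and Schwann cell genes rose. Mitochondrial transcripts took 14.0% of the counts of Pax7Cre mouse 2 and 6.59% of those of Pax7Cre mouse 4, the ends of the range over the 10 mice. The part of cell composition and of the mitochondrial share in the levels of the 33 genes was not tested.

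Genotype and score were fitted together over all genes. In edgeR, 21 of the 33 genes rose with the score at an adjusted p under 0.05 and 0 fell. At the same adjusted threshold 1675 genes (11.6%) rose and 970 (6.73%) fell among the 14410 tested. At an unadjusted p under 0.05 in edgeR, also 0 of the 33 fell, and the count over all genes at that level is not given. Slopes, in log2 units of expression per log2 unit of score, had a median of 0.52 over the 33, beside −0.015 over all genes tested. No slopes were fitted in TPM, where called genes differed in how far the mice at the ends of the score lay apart. In Pax7Cre mice 2 and 4 in turn, *Pvalb* had 12977 and 4348 TPM and *Tmem38a* 841 and 567 TPM. By contrast, *Srl* had 589 and 601 TPM and *Tmem38b* 32.1 and 33.9 TPM. The steepest belonged to *Pvalb* with 1.22 (standard error 0.188, edgeR adjusted p = 0.000887), *Atp1b1* with 1.05 (standard error 0.140), *Pln* with 1.04 (standard error 0.306) and *Scn4a* with 1.00 (standard error 0.176). Of the calcium store and buffer genes 5 of 6 were called, of the triad genes 5 of 7, of the voltage sensor 3 of 5, of the pump genes 2 of 4, and of the release channel genes 1 of 3. Both TRIC channels and both excitability genes were called, 1 of the 2 kinase genes was, and neither *Stim1* nor *Orai1*. *Stim1* and *Camk2b* lay near the threshold, with edgeR adjusted p-values of 0.0564 and 0.0540, and with a score of metabolic fiber genes alone both were called, at 0.0339 and 0.0360. The slopes of *Ryr3*, *Atp2a2* and *Fkbp1a* were below 0, at −0.35, −0.21 and −0.12, and were not called.

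Most of these calls were lost without Pax7Cre mouse 2, although most slopes stayed similar. Without it 1 of the 33 genes was called in edgeR, *Tmem38a*, beside 73 higher and 5 lower among all genes, and without Pax7Cre mouse 4 the number of falling genes was 591. Without Pax7Cre mouse 4, *Asph*, *Casq1*, *Pln* and *Tmem38b* were not called and *Cacnb1* was. *Stim1* was called without Pax7Cre mouse 5 or miR-501KO mouse 5, and *Camk2b* without Pax7Cre mouse 5. With Pax7Cre mice 2 and 4 left out together, as chosen after seeing the data, 3 of the 33 were called (*Jsrp1*, *Scn4a* and *Atp1b1*), beside 86 rising and 1 falling among all genes. The slopes of the 21 genes had a median of 0.70 with all mice and 0.69 without Pax7Cre mouse 2, with all 21 above 0 in both fits. *Pvalb* had a slope of 1.37 and *Atp2a1* of 0.92 without that mouse, while the slopes of *Pln* and *Ryr1* were smaller, at 0.42 and 0.38. Without Pax7Cre mice 2 and 4 the slopes of *Casq1* and *Pln* were below 0, at −0.18 and −0.21.

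Relations of single genes with the score over the 10 mice were computed on log2 CPM as 66 coefficients, Pearson's r and Spearman's rho for each gene, each with a two-sided permutation test of 100000 resamples, and r was computed again without the mice farthest from the median score, Pax7Cre mice 2 and 4. The score and the genes were measured in the same libraries. *Tmem38a* had the highest Pearson's r of the 33, with a Pearson's r of 0.98 (permutation p = 1e-05, the smallest p these resamples can give) and a Spearman's rho of 0.94 (permutation p = 0.00019), and r was 0.93 over the other 8 mice. By rho, *Jph1*, *Jph2* and *Srl* stood higher, each at 0.95, and by r over the 8 mice *Stac3*, at 0.95. *Pvalb* had a Pearson's r of 0.91 (permutation p = 0.00155) and a Spearman's rho of 0.72 (permutation p = 0.0232), and r was 0.62 over the 8 mice. *Atp2a1* had a Pearson's r of 0.82 (permutation p = 0.00162) and a Spearman's rho of 0.94 (permutation p = 0.00024), with r at 0.83 over the 8 mice. In contrast, for *Casq1* Pearson's r was 0.82 (permutation p = 0.0133) and Spearman's rho 0.58 (permutation p = 0.0884) but r was 0.021 over the 8 mice, so that its relation rests on Pax7Cre mice 2 and 4. Over the 8 mice r was also low for *Asph* (0.19), *S100a1* (0.30), *Pln* (0.37), *Trdn* (0.43) and *Tmem38b* (0.49). *Fkbp1a* ran the other way, with a Pearson's r of −0.79 (permutation p = 0.0105) and a Spearman's rho of −0.72 (permutation p = 0.0226), and r was −0.48 over the 8 mice, although its slope was not called in edgeR (adjusted p = 0.331). Over the 21 called genes the r of the 8 mice had a median of 0.81. Adjusted p-values over all genes tested, given with the slopes, were 5.95e-05 for *Tmem38a*, 0.000887 for *Pvalb*, 0.00634 for *Atp2a1* and 0.0169 for *Casq1* in edgeR.

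**Figure D4:**
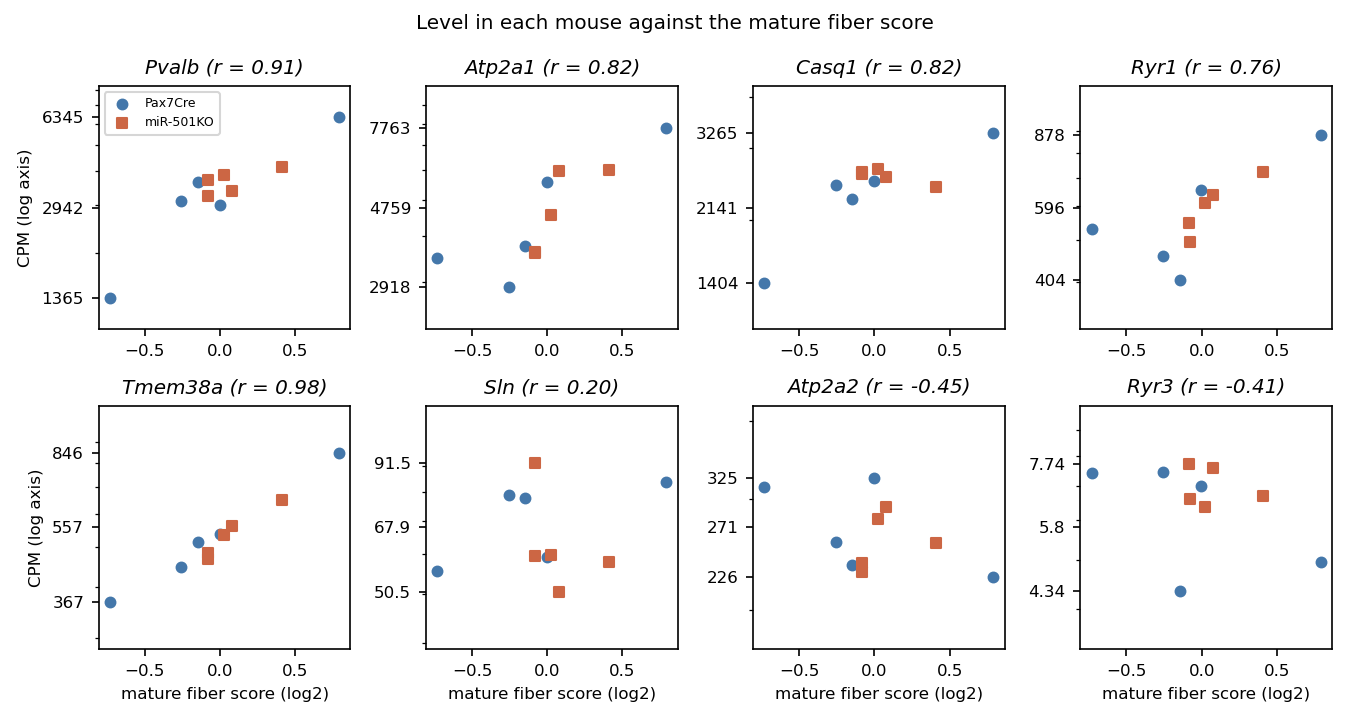
CPM of 8 genes in each mouse on log axes against the mature fiber score, with Pax7Cre mice as circles and miR-501KO mice as squares (n = 5 each) and Pearson's r of log2 CPM over 10 mice above each panel. *Tmem38a* rises steadily with the score, while *Sln*, *Atp2a2* and *Ryr3* do not.

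The 3p strand of the deleted miRNA was matched to the 33 transcripts, since a miRNA pairs with its targets mainly through bases 2 to 8. Mature miR-501-3p lies on chrX:7241270-7241291 of GRCm38.p6, minus strand, and reads as follows in RefSeq, with bases 2 to 8 in capitals.
miR-501-3p: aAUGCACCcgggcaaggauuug
A site was taken as GGTGCAT, the complement of these bases, in any 3′ untranslated region annotated in GENCODE M21. Of the 33 genes, 2 (6.06%) had a site, beside 1159 of 14074 genes tested with such a region (8.24%). Both sites were followed by an A, an 8-base site that 273 of the 14074 genes (1.94%) held. They are shown with their surroundings, read 5′ to 3′ on the transcript with the site in capitals, in *Jph2* on chr2:163337026-163337032, minus strand, and in *Tmem38b* on chr4:53861518-53861524, plus strand.
Jph2: gctgaatccctGGTGCATactctctggcag
Tmem38b: ttgctcgatttGGTGCATaactgccatgtt
The log2 fold changes of these genes were 0.083 (95% interval −0.25 to 0.41) and −0.0078 (95% interval −0.21 to 0.20). A match of letters does not show that the miRNA binds there.

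The promoters of the 33 genes were also searched for motifs of muscle genes. Any relation of these motifs to the levels across mice was not tested. RefSeq windows of 300 bases around the start (GRCm38.p6) were matched for 20 of the 33 genes, as 23 windows. The E-box CAGCTG, a sequence that myogenic factors such as MyoD can bind, was found in 9 of the 20 genes (45.0%) and in 10 of the 23 windows (43.5%), beside 16.3% of all 32851 windows and 18.6% of 10998 genes tested. The MEF2 consensus was found in 2 of the 20 (10%), *Pvalb* and *Casq2*, beside 3.19% of all windows and 2.35% of genes tested. Both motifs read the same on either strand, no window of the 33 genes held both, and a match is a description of letters. Windows of the most abundant genes and of both calsequestrins are shown 5′ to 3′ on the gene's strand, with motifs in capitals, for *Pvalb* (chr15:78206351-78206650, minus strand), *Casq2* (chr3:102086165-102086464, plus strand), *Atp2a1* (chr7:126463024-126463323, minus strand) and *Casq1* (chr1:172219846-172220145, minus strand). In the first pair the capitals mark the MEF2 consensus and in the second pair CAGCTG.
Pvalb: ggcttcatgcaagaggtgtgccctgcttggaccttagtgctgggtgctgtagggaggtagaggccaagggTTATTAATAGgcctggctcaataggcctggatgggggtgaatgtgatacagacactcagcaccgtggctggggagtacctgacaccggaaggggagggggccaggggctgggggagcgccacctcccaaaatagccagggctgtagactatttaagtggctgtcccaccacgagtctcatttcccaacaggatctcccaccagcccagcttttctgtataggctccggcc
Casq2: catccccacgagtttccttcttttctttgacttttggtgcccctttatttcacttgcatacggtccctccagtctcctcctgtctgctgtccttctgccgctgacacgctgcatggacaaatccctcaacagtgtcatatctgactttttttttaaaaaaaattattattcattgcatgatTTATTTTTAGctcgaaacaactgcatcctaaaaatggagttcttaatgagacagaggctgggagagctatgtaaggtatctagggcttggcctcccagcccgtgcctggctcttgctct
Atp2a1: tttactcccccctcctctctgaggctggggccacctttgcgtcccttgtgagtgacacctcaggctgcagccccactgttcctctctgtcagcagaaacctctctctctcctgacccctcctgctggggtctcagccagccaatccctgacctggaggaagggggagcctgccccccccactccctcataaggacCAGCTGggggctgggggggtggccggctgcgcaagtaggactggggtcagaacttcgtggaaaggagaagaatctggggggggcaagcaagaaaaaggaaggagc
Casq1: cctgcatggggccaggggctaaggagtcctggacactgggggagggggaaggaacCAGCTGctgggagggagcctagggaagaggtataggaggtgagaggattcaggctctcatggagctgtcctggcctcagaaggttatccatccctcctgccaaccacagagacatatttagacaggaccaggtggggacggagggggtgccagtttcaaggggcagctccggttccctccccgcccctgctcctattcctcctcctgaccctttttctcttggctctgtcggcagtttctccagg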

How the data were processed

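Polyadenylated RNA of 10 TA muscles was sequenced from stranded TruSeq libraries as 100 bp single-end reads. Raw counts per gene, without normalization, were deposited after the authors' alignment with STAR, and the submitters' processing notes name featureCounts, R 3.5.1 and GRCm38.p5. Whether counting used strand, how reads matching more than 1 gene were counted and how the counts were tested are not given in the sources used here, so genes that overlap on opposite strands, and close paralogs, may share reads. Of 25700 identifiers, 25587 matched GENCODE M21, which gave names and exon lengths. The members and lists were chosen with earlier results of these data known.

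In R 4.3.3, edgeR 4.0.16 kept 14410 genes with filterByExpr (minimum count 10, minimum total count 15), computed TMM factors and CPM and ran the quasi-likelihood test of genotype, with Benjamini-Hochberg adjustment over all genes. The biological coefficient of variation was 0.149. Standard errors come from the fit's information matrix with the moderated dispersion. The score used log2 CPM with a prior count of 2. Correlations were computed in Python 3.11.15 with numpy 2.4.6. The steps were tested on simulated data. No batch is labelled, and libraries of a genotype differed by more than counting noise, so each was counted as its own mouse. The labels say that the mice are separate animals.

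Named by rule were all 33 genes, in each direction the 3 other calcium genes of smallest p, and the most abundant gene of each marker list. Values per mouse are given for the 12 genes with the smallest p and for each paralog pair, and those of *Pvalb*, and the names *Cacng6* and *Scn4b*, were added after their values were seen. Some results on other calcium genes are not reported here. Other settings were DESeq2 1.42.0, its size factors, TMM without muscle genes, other filters and forms of the edgeR test, a replicate block, another score and leaving out mice.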

Additional observations from a re-analysis of the deposited data

Results flagged for a closer look

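For 53 quantities, the 33 genes, sums of marker lists, paralog ratios and the score, each genotype was searched for a mouse whose gap to the nearest of the other 4 was above 0.71 of the range over all 5. This was so in 10 of 106 groups, where chance gives about 1 in 20 groups, or 5.30, and many of these quantities vary together. Pax7Cre mouse 2 was that mouse in 5 of the 10.

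Pax7Cre mouse 2 was the highest of its group for *Stac3* (121, beside 54.1 to 72.3 CPM in the other Pax7Cre mice), *Jsrp1* (189, beside 100.4 to 125 CPM), and the ratios of *Ryr1* to *Ryr3* (177, beside 61.9 to 93.6), *Atp2a1* to *Atp2a2* (34.4, beside 11.1 to 17.1) and *Camk2a* to *Camk2b* (1.24, beside 0.759 to 0.897). In miR-501KO mouse 4, *Stac3* was at 97.3, beside 65.7 to 74.3 CPM in the other miR-501KO mice, and the summed mature fiber genes were at 74521, beside 61143 to 63466 CPM. *Sln* was highest in miR-501KO mouse 2 (91.5, beside 50.5 to 59.9 CPM), *Cacng1* lowest in miR-501KO mouse 1 (262, beside 309 to 327 CPM), and the ratio of *Jph1* to *Jph2* lowest in miR-501KO mouse 3 (0.456, beside 0.526 to 0.550).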

How the results depend on the processing

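Leaving out Pax7Cre mice 2 and 4 together was chosen after seeing the data. No setting gave a gene with an adjusted p under 0.05 between genotypes. With p under 0.05 before adjustment, 55 genes were higher and 96 lower as reported, 153 and 159 without a filter, 36 higher with at least 10 counts in every mouse, 87 higher with the replicate block, and 279 and 252 without Pax7Cre mice 2 and 4. Leaving out each mouse in turn gave 39 to 267 higher and 59 to 242 lower genes, 0 to 3 of the 33 higher and 0 to 1 lower, and 0 to 2 of the other calcium genes higher. The replicate block gave 1 of the other calcium genes higher (*Atp2b4*), and leaving out both mice gave 1 of the 33 and 3 of the others. The median of the 33 ranged from −0.046 to 0.18 when a mouse was left out. Of the 33 genes, 1 to 23 rose with the score when a mouse was left out, beside 73 to 1839 rising and 5 to 1293 falling among all genes, and without both mice 3, 86 and 1. The cause was not tested. The 8-base site gave the same 2 genes as the 7-base site.

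Whether equal numbers of the genotypes mark pairs is not known, and the main fit used no pairs. Deviations of same-numbered mice correlated from −0.30 to 0.34. Pax7Cre mice 1, 3 and 5 correlated best with the miR-501KO mouse of their own number, as a hint from the data. Correlations over so few mice cannot decide whether the numbers mark pairs. With the replicate block *Stim1* and *Camk2b* also rose with the score and *Pln* did not, so that 22 of the 33 were called, and *Camk2b* also rose in the fit without the genotype term. With the replicate block the median of the 33 was 0.053, and log2 fold changes crossed 0 for *Hrc* (0.028), *Scn4a* (0.069), *Atp1b1* (0.070), *Bin1* (0.0018), *Tmem38a* (0.040) and *S100a1* (0.020). *Fkbp1a* crossed 0 without a filter (−0.00060) and with at least 10 counts in every mouse (−0.0022). Without Pax7Cre mice 2 and 4 this held for *Cacng1* (0.043), *Asph* (−0.040), *Hrc* (0.041), *Fkbp1a* (−0.018), *Stim1* (0.029), *Scn4a* (0.27), *Atp1b1* (0.24), *Bin1* (0.069), *Tmem38a* (0.11) and *S100a1* (0.038). Of 330 fits of the 33 genes in the 10 settings that do not leave out a single mouse, 312 kept their sign and side of the threshold.

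In 25 genes the sign changed in some fit without 1 of the 10 mice, with log2 fold changes over these fits of *Ryr1* −0.069 to 0.23, *Cacng1* −0.034 to 0.059, *Cacna2d1* −0.046 to 0.13, *Stac3* −0.10 to 0.23, *Jph1* −0.070 to 0.18, *Jph2* −0.0055 to 0.22, *Jsrp1* −0.11 to 0.19, *Trdn* −0.14 to 0.25, *Asph* −0.11 to 0.10, *Casq1* −0.027 to 0.25, *Casq2* −0.14 to 0.026, *Atp2a1* −0.11 to 0.27, *Atp2a2* −0.13 to 0.0051, *Pvalb* −0.13 to 0.40, *Hrc* −0.12 to 0.15, *Srl* −0.033 to 0.13, *Fkbp1a* −0.029 to 0.021, *Stim1* −0.11 to 0.043, *Scn4a* −0.17 to 0.29, *Atp1b1* −0.12 to 0.31, *Sypl2* −0.051 to 0.14, *Bin1* −0.037 to 0.045, *Tmem38a* −0.12 to 0.21, *Tmem38b* −0.076 to 0.061 and *S100a1* −0.17 to 0.18. The low counts of *Pln* add counting error to its spread between mice.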
